A study of Homo sapiens with 6 samples.

Results

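Interferon-stimulated genes are the genes whose transcription is switched on when a cell meets an interferon or senses foreign nucleic acid. 46 of them were listed by symbol, and 45 had a row among the 21857 genes of the deposited tables. RIGI is filed there under its older symbol DDX58, and GBP1 was not analysed here. The 46 genes comprise 38 effectors, which act on viruses, on RNA or on the cell itself, and 8 genes upstream of them, namely the transcription factors STAT2, IRF1, IRF2, IRF7 and IRF9 and the RNA sensors RIGI, IFIH1 and DDX60. RNA was sequenced from MV4;11, an established line of human acute myeloid leukemia that carries the FLT3-ITD receptor mutation and the MLL-AF4 fusion in every library. 3 libraries came from cells given flavokawain A (FKA, a chalcone of the kava plant) at 10 µg/ml for 48 h and 3 from control cells without it. Each of the 3 batches named in the labels holds 1 FKA and 1 control library. The labels do not say whether the libraries came from separate cultures or whether the controls received a solvent, so p-values measure only the spread between these libraries, which may be technical.

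Type I interferons bind the receptor made of IFNAR1 and IFNAR2, whose kinases JAK1 and TYK2 phosphorylate STAT proteins. STAT2 and IRF9 are subunits of the complex ISGF3, which binds the interferon-stimulated response element (ISRE) in front of most genes of the family, whereas interferon gamma acts through the GAS element. The products block viral entry, translation and replication. Some of them, such as USP18 and SOCS1, switch the pathway off again, and unphosphorylated STAT2 with IRF9 can maintain part of the program at a low level.

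Total gene counts ran from 29971171 to 33183376 in FKA libraries and from 33759185 to 36362421 in control libraries. The myeloid markers fixed for the line, among them PTPRC, CD33, FLT3, MEIS1 and HOXA9, had counts in every library, and their summed level was 1546 to 1667 CPM in FKA libraries and 1125 to 1385 CPM in control libraries. PTPRC and FLT3 held most of that sum, and neither passed an edgeR adjusted p under 0.05. Of the 10 markers 3 were higher with FKA (30%, against 29.3% of all tested genes), 1 was lower (10%, against 30.5%) and 6 were not called. CPM here are counts scaled to library size by the TMM method, which corrects for a shift in composition between libraries. COL1A1, a collagen of fibroblasts that leukemia cells are not known for, had 0.342, 13 and 12.9 CPM in FKA replicates 1 to 3, against 2.41, 2.29 and 0.119 CPM in control replicates 1 to 3, and fibronectin (FN1) had 0.59, 25 and 22.8 CPM in FKA replicates 1 to 3, against 5.47, 4.69 and 0.535 CPM in control replicates 1 to 3. Both were thus high in FKA replicates 2 and 3 and low in FKA replicate 1. Log2 fold changes of some genes are also given without those 2 libraries. In bulk RNA, fewer cells of a type and less RNA per cell cannot be told apart.

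The promoters show what the family shares in sequence. The RefSeq promoter table (build GRCh38.p14) held 36 of the 46 genes, and the 250 bases before each gene start were searched on both strands for the ISRE core GAAANNGAAA and for the GAS core TTCNNNGAA, where N is any base. The genes not in it were IFIT2, IFITM2, OAS2, OASL, MX2, GBP2, USP18, TRIM22, IRF2 and IRF7. The ISRE core was found in front of 24 of the 36 genes (66.7%), against 1014 of 27305 genes of the table (3.71%). The GAS core was found in front of 12 of the 36 (33.3%), against 8.09% of all genes. Matches of the ISRE core were counted with overlaps, and in 4 of the genes, BST2, MX1, IFI27 and EPSTI1, a GAS match shares bases with an ISRE core match. The following sequences, 170 bases long and ending 1 base before the gene start, are shown because these genes carry the same element and yet behaved differently with FKA. Capitals mark ISRE core matches on either strand, and each sequence runs 5′ to 3′ on the strand of its gene. IFI6 lies at chr1:27672193-27672362 on the minus strand, IFIT1 at chr10:89392453-89392622 on the plus strand, IFIT3 at chr10:89327827-89327996 on the plus strand, IFIT5 at chr10:89414398-89414567 on the plus strand and BST2 at chr19:17405631-17405800 on the minus strand, and these 5 genes rose with FKA. ISG15 lies at chr1:1013327-1013496 on the plus strand and HERC5 at chr4:88456949-88457118 on the plus strand, and neither passed the test. DDX60, which fell, lies at chr4:168318753-168318922 on the minus strand.
IFI6: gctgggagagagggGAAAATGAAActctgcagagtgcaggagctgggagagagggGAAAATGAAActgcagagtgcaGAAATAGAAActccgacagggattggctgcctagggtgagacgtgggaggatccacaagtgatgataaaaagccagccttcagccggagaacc
IFIT1: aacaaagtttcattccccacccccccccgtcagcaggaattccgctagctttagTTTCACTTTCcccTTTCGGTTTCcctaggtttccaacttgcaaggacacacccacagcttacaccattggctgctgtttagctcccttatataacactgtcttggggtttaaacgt
IFIT3: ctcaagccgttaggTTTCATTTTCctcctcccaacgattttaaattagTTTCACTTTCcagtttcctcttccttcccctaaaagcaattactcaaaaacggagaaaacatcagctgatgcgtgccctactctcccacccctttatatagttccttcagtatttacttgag
IFIT5: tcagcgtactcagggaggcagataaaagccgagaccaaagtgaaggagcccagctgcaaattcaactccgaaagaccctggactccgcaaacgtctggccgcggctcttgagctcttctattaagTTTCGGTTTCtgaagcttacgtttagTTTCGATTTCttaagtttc
BST2: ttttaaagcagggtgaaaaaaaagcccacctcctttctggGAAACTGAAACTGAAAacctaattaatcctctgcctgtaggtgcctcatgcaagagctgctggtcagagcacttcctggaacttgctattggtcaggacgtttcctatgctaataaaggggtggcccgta
ISG15: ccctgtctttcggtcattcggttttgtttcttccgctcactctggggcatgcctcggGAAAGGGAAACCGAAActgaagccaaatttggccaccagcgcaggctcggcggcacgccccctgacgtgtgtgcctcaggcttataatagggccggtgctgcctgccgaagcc
HERC5: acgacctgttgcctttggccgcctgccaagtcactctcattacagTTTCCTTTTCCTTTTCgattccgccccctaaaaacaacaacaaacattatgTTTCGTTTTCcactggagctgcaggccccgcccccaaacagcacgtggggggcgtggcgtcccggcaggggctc
DDX60: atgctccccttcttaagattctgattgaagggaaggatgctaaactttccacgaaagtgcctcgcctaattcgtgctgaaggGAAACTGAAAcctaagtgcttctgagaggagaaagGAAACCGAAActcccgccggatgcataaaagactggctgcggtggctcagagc

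Among the printed sequences, IFI6 and HERC5 hold 3 matches each and the other 6 genes hold 2 each, and in BST2, ISG15 and HERC5 neighbouring matches overlap. Split by response, the ISRE core stood in front of 9 of the 17 genes with a promoter that rose, 1 of the 2 that fell, 9 of the 12 that were tested and not called, and the 5 that were too low to test or were not analysed. STAT2, IRF9, RIGI, OAS1, IFI35, SP100, SP110 and SAMD9L rose without such a match in the windows searched. A match is a stretch of letters and was not measured as bound.

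**Figure D1:**
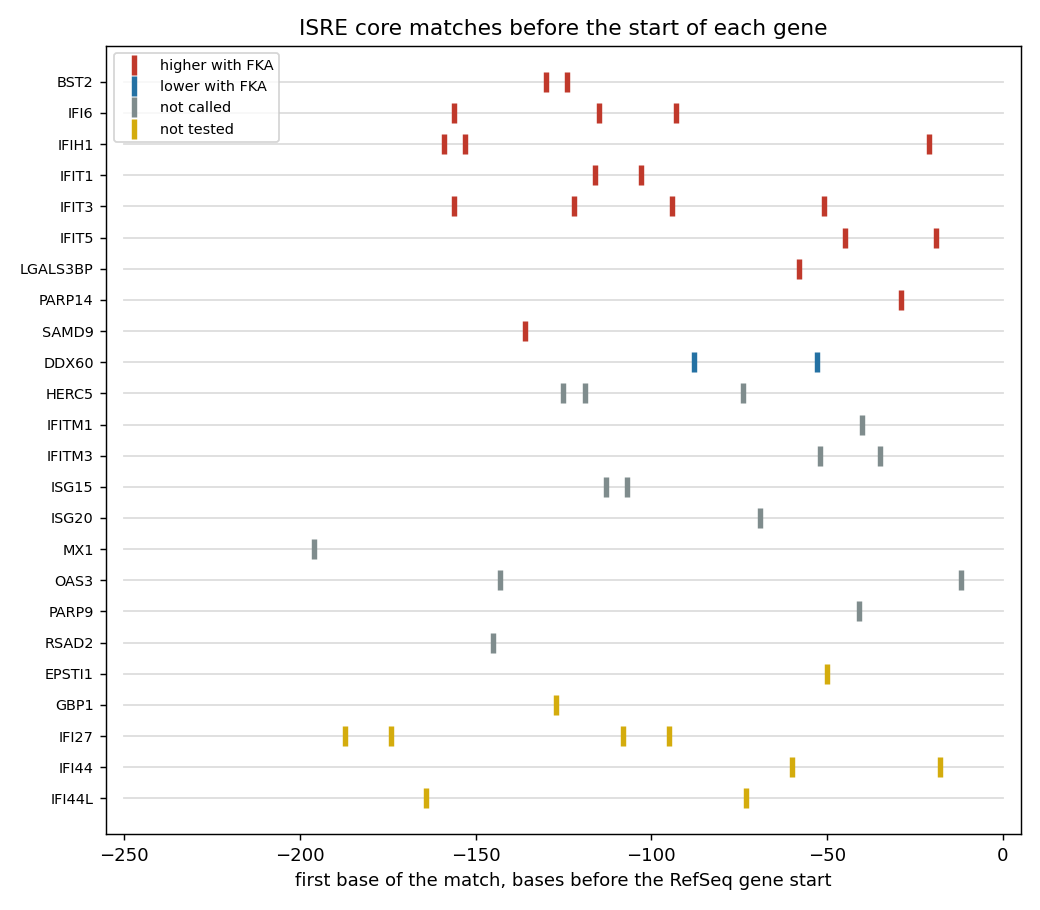
Position of ISRE core matches before the RefSeq gene start (x axis, bases; y axis, the 24 interferon-stimulated genes with a match, in the order higher, lower, not called, not tested). Ticks are matches of all promoter windows of a gene, coloured by the response to FKA, and genes of every response carry them.

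The comparison of FKA with control cells asks which of these genes change with the drug. Of the 45 genes in the files, 39 had enough counts to be tested. 20 were higher with FKA, 3 were lower and 16 were not called at an edgeR adjusted p under 0.05. Called genes made up 59.0% of those tested, against 59.8% of all 13531 tested genes, so the share that changed was close to that of all genes. The higher calls made up 51.3%, against 29.3% of all tested genes, and the lower calls 7.69%, against 30.5%. The median log2 fold change of FKA over control (log2FC) was 0.48, against 0.01 over all tested genes. Changes of at least 2-fold were found in 12 higher and 2 lower genes, while 11.9% of all tested genes were called and at least 2-fold higher and 13.7% at least 2-fold lower. FKA and control libraries did not overlap in 27 of the 39, and 67.3% of all tested genes did not overlap. When batch was blocked, 22 genes were higher and 5 lower, while of all 13531 tested genes 4066 were higher and 4223 lower. A further fit left out FKA replicates 2 and 3 together, which leaves 1 FKA library. 8 calls were lost there, where an arm of 1 library leaves fewer samples for the test by construction. The log2FC was then 1.27 for LGALS3BP (1.22 with all libraries), 0.76 for OAS1 (0.62), 0.36 for SP100 (0.36), 0.40 for IFIH1 (0.46), 0.44 for SP110 (0.57), 0.30 for IFI35 (0.48), 0.78 for TRIM22 (1.13) and -0.58 for DDX60 (-0.71). When libraries were scaled by their totals alone, the median of all genes was 0.16 higher, and 60.3% of all calls were higher ones, against 48.9% with TMM. Under that scaling 22 interferon-stimulated genes were higher and 3 lower, IFITM1 and PARP9 having joined.

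**Figure D2:**
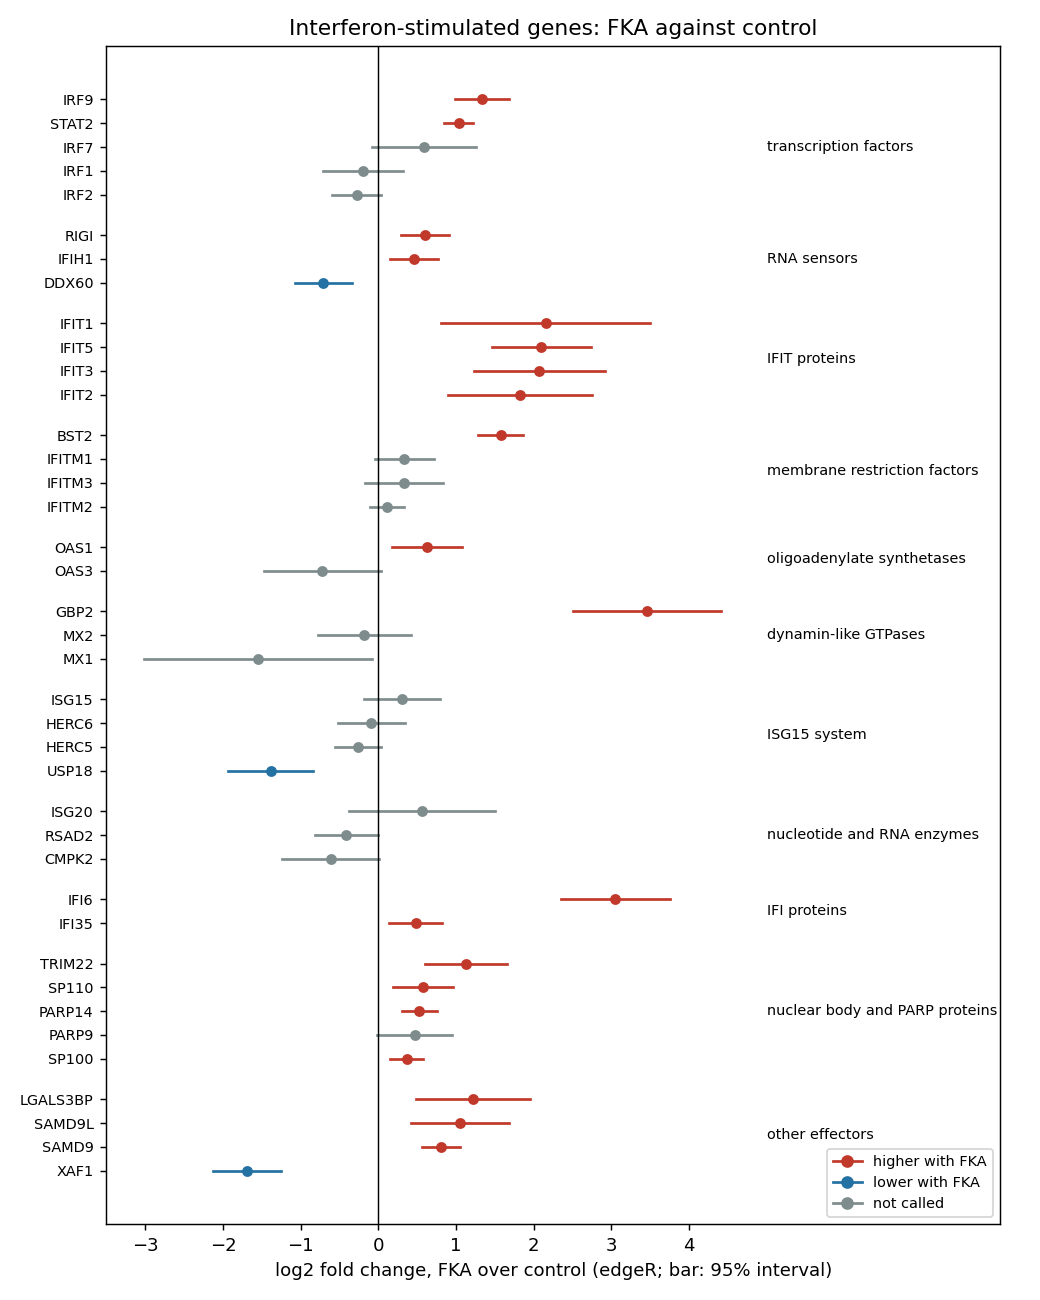
Log2 fold change of FKA over control (x axis) with its 95% interval for the 39 tested genes, grouped by role (y axis) and coloured by the edgeR call. GBP2 and IFI6 lie farthest to the right, all 4 IFIT genes are near 2, and XAF1, USP18 and DDX60 are the called genes to the left of 0.

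Among the transcription factors, the ISGF3 subunits STAT2 and IRF9 rose with FKA, while IRF1, IRF2 and IRF7 were not called. STAT2 had 165, 157 and 169 CPM in FKA replicates 1 to 3, against 82.1, 75.6 and 82.4 CPM in control replicates 1 to 3. The FKA values lay about double the control values with little spread in either group (log2FC 1.03, SE 0.0818, adjusted p = 1.79e-05 in edgeR), and the within-batch differences were 1.00, 1.05 and 1.03. IRF9, the DNA-binding subunit, had 18.4, 18.2 and 15.7 CPM in FKA replicates 1 to 3, against 6.15, 7.99 and 6.63 CPM in control replicates 1 to 3. All FKA libraries exceeded all control libraries (log2FC 1.33, SE 0.154, adjusted p = 0.000124 in edgeR). IRF7, which drives interferon alpha genes, had 15.4, 22 and 15.6 CPM in FKA replicates 1 to 3, against 7.37, 17.5 and 10.3 CPM in control replicates 1 to 3. Its groups overlapped through control replicate 2 (log2FC 0.59, SE 0.294, adjusted p = 0.112 in edgeR). IRF7 passed when batch was blocked (log2 fold change 0.65, adjusted p = 0.0119 in edgeR) and without control replicate 2 (0.99, adjusted p = 0.00795 in edgeR). IRF1, an early activator that interferon gamma induces, had 27.9, 32.3 and 28 CPM in FKA replicates 1 to 3, against 21.3, 44.6 and 35 CPM in control replicates 1 to 3. Control replicate 1 was the lowest and control replicate 2 the highest of the 6 libraries (log2FC -0.20, SE 0.228, adjusted p = 0.482 in edgeR). IRF2, which competes with IRF1 for the same DNA element, had 31.3, 36.1 and 28.4 CPM in FKA replicates 1 to 3, against 32.4, 43.5 and 40.2 CPM in control replicates 1 to 3 and was not called either (log2FC -0.28, SE 0.138, adjusted p = 0.111 in edgeR). Without control replicate 1 the log2 fold changes were -0.45 for IRF1 (adjusted p = 0.0174 in edgeR) and -0.40 for IRF2 (adjusted p = 0.0195 in edgeR), and without control replicate 2 that of IRF1 was 0.05.

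The sensors split. RIGI, which detects viral RNA with free 5′ phosphates, had 34.2, 33.9 and 28.2 CPM in FKA replicates 1 to 3, against 19, 24.4 and 20.1 CPM in control replicates 1 to 3. The groups did not overlap (log2FC 0.60, SE 0.135, adjusted p = 0.00433 in edgeR). IFIH1, the sensor of long double-stranded RNA also called MDA5, had 13.4, 14.1 and 13.9 CPM in FKA replicates 1 to 3, against 10, 9.14 and 11 CPM in control replicates 1 to 3. This was a small rise (log2FC 0.46, SE 0.135, adjusted p = 0.0164 in edgeR), which missed the threshold without control replicate 2 (0.38, adjusted p = 0.0658 in edgeR) and without FKA replicates 2 and 3 together (0.40, adjusted p = 0.199 in edgeR). DDX60, a helicase reported to assist RIGI, had 11.7, 11.9 and 8.29 CPM in FKA replicates 1 to 3, against 16.6, 17.3 and 18.3 CPM in control replicates 1 to 3. It fell, with FKA replicate 3 lowest (log2FC -0.71, SE 0.164, adjusted p = 0.00515 in edgeR), and missed the threshold without FKA replicates 2 and 3 together (-0.58, adjusted p = 0.0655 in edgeR).

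All 4 IFIT genes rose, while 29.3% of all tested genes were higher. Some of their proteins bind viral or unmodified messenger RNA and hinder its translation. IFIT3 had 10.3, 14.1 and 6.33 CPM in FKA replicates 1 to 3, against 1.38, 3.49 and 2.38 CPM in control replicates 1 to 3. FKA replicate 2 was highest and FKA replicate 3 lowest of the treated libraries, yet still above every control (log2FC 2.07, SE 0.375, adjusted p = 0.00137 in edgeR). IFIT2 had 11.1, 13.5 and 4.63 CPM in FKA replicates 1 to 3, against 1.61, 3.35 and 3.27 CPM in control replicates 1 to 3, with FKA replicate 3 again close to the controls (log2FC 1.82, SE 0.411, adjusted p = 0.0045 in edgeR). Batches 1, 2 and 3 gave IFIT2 differences of 2.46, 1.86 and 0.44, and IFIT3 differences of 2.52, 1.87 and 1.25, on the log2(CPM + 0.5) scale. IFIT1 was barely expressed, with 47, 47 and 11 counts in FKA replicates 1 to 3, against 8, 7 and 9 counts in control replicates 1 to 3. FKA replicate 3 thus held about as many IFIT1 counts as the controls (log2FC 2.15, SE 0.595, adjusted p = 0.0122 in edgeR). The filter on low counts kept IFIT1 through its FKA libraries alone, so it could be tested only because it was high there. IFIT5, which differs from the others in binding RNA with a single 5′ phosphate, had 3.39, 3.34 and 2.93 CPM in FKA replicates 1 to 3, against 0.579, 0.978 and 0.684 CPM in control replicates 1 to 3. Its FKA values were close to each other (log2FC 2.10, SE 0.281, adjusted p = 0.000269 in edgeR), with FKA replicate 3 only slightly below the others. The gene model of LIPA, a lysosomal lipase, overlaps the 4 IFIT genes in the RefSeq table. LIPA had 122, 141 and 148 CPM in FKA replicates 1 to 3, against 91.8, 80.1 and 74.5 CPM in control replicates 1 to 3 (log2FC 0.74, SE 0.11, adjusted p = 0.000456 in edgeR), its highest value in FKA replicate 3, and whether reads were divided between it and the IFIT genes was not tested.

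The effectors at membranes split into BST2, which rose, and the IFITM genes, which were not called. BST2 (tetherin), which ties budding virus particles to the cell surface, had 67.7, 85.3 and 73.7 CPM in FKA replicates 1 to 3, against 24.3, 28.9 and 23 CPM in control replicates 1 to 3. The groups lay far apart (log2FC 1.57, SE 0.126, adjusted p = 1.9e-05 in edgeR), a fold of 2.97. IFITM1, IFITM2 and IFITM3 block fusion of viruses with the cell, are neighbours on chromosome 11 and are similar enough in sequence that reads assigned to each are uncertain. IFITM2 had 35.7, 39 and 37.7 CPM in FKA replicates 1 to 3, against 34, 36.8 and 33.1 CPM in control replicates 1 to 3, and the interval of its log2 fold change was -0.10 to 0.33 (log2FC 0.11, SE 0.0955, adjusted p = 0.332 in edgeR). IFITM1 had 11.7, 10.8 and 9.24 CPM in FKA replicates 1 to 3, against 9.81, 8.02 and 7.38 CPM in control replicates 1 to 3 (log2FC 0.33, SE 0.169, adjusted p = 0.116 in edgeR), with an interval of -0.05 to 0.72, and IFITM3 had 3.82, 4.53 and 5.27 CPM in FKA replicates 1 to 3, against 3.02, 4.41 and 3.39 CPM in control replicates 1 to 3 (log2FC 0.33, SE 0.224, adjusted p = 0.23 in edgeR). IFITM1 passed as higher when only library totals set the scale (0.50, adjusted p = 0.03 in edgeR) and without control replicate 1 (0.45, adjusted p = 0.046 in edgeR). IFITM2 passed with limma on log2(FPKM + 1), which carries no TMM scaling (0.27, adjusted p = 0.0276 in limma). IFITM3 passed with limma on log2(FPKM + 0.1) (0.49, adjusted p = 0.0497 in limma) and on log2(FPKM + 1) of genes with a mean FPKM of at least 1 (0.43, adjusted p = 0.0441 in limma).

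Of the dynamin-like GTPases, GBP2 showed the highest fold change of the 39 tested genes. GBP2, which attacks vacuoles of intracellular microbes and is induced mainly by interferon gamma, had 268, 609 and 335 counts in FKA replicates 1 to 3, against 20, 61 and 33 counts in control replicates 1 to 3. In scaled values it averaged 12.3 ± 5.84 CPM in FKA cells and 1.11 ± 0.542 CPM in control cells (SD, n = 3 each). FKA replicate 2 was about double the other FKA libraries, and every FKA library exceeded every control (log2FC 3.46, SE 0.422, adjusted p = 0.000163 in edgeR). The within-batch differences were 2.95, 3.15 and 2.77. MX1, the classical antiviral GTPase and a common read-out of type I interferon, was nearly silent, with 15, 6 and 1 counts in FKA replicates 1 to 3, against 17, 24 and 26 counts in control replicates 1 to 3. The values in FKA cells were lower but missed the threshold (log2FC -1.55, SE 0.646, adjusted p = 0.0643 in edgeR), and passed it without FKA replicate 1 (-2.61, adjusted p = 0.0141 in edgeR). Its neighbour MX2, which acts on retroviruses at the nuclear pore, had 2.76, 2.81 and 2.39 CPM in FKA replicates 1 to 3, against 3.57, 2.04 and 3.45 CPM in control replicates 1 to 3 and overlapping groups (log2FC -0.18, SE 0.264, adjusted p = 0.57 in edgeR).

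**Figure D3:**
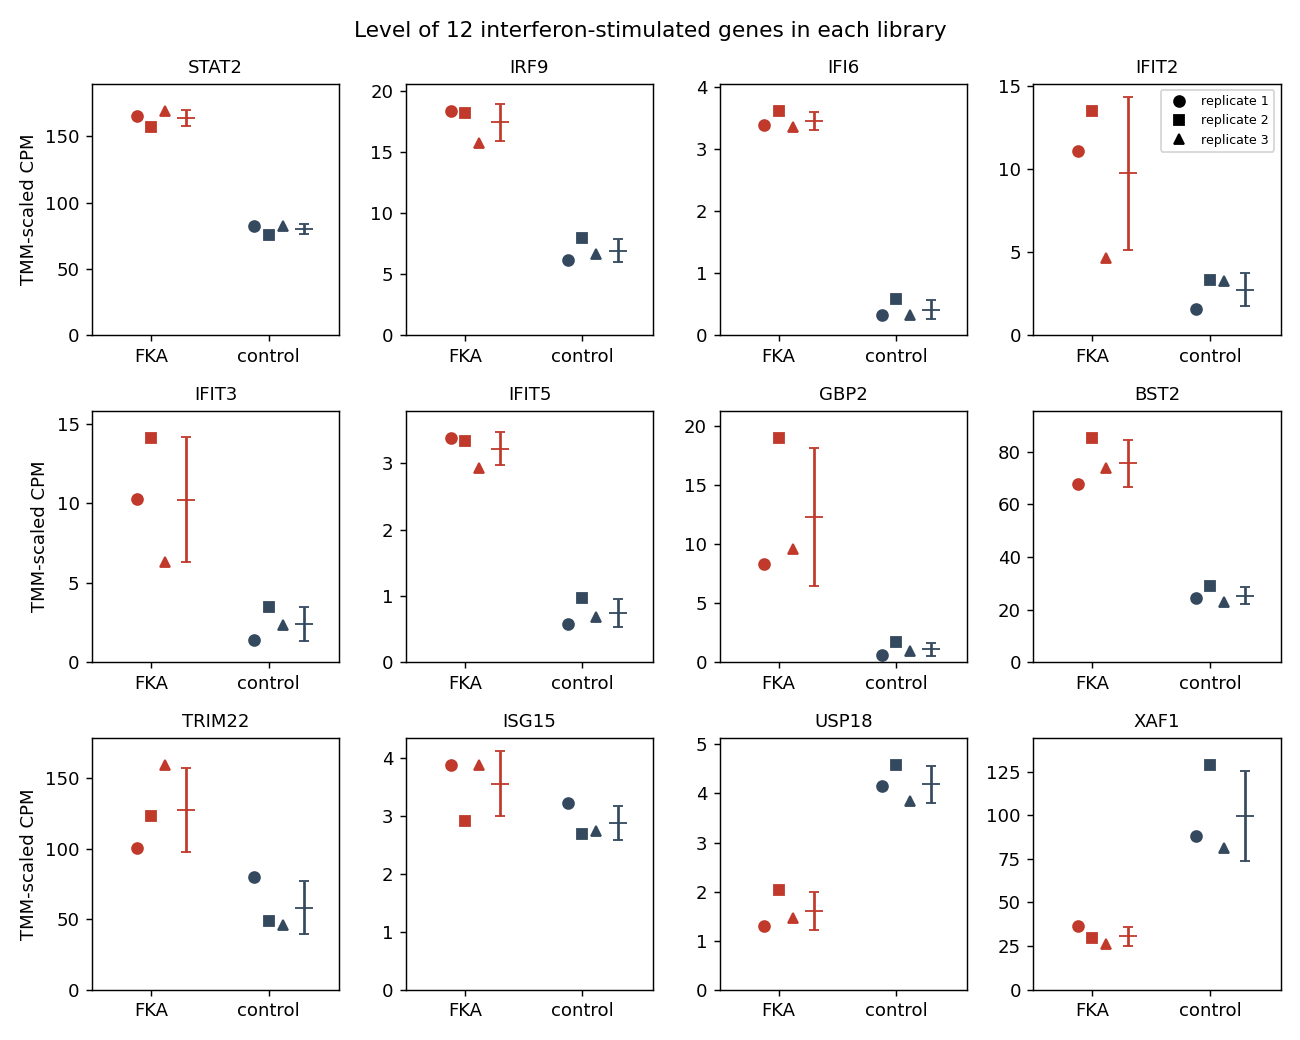
Level of 12 interferon-stimulated genes (y axes, TMM-scaled CPM from 0) in each library, with FKA on the left and control on the right of each panel. Symbols are replicates and bars the mean with SD of 3 libraries. The groups are apart in all panels but ISG15, where FKA replicate 2 lies among the controls.

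ISG15, a ubiquitin-like protein, did not pass the test, and its protease fell. ISG15 had 3.88, 2.91 and 3.88 CPM in FKA replicates 1 to 3, against 3.22, 2.68 and 2.74 CPM in control replicates 1 to 3. FKA replicate 2 lay among the controls (log2FC 0.31, SE 0.217, adjusted p = 0.247 in edgeR), and the interval of -0.18 to 0.80 spans no change and a rise of under 2-fold. With limma on log2(FPKM + 1) ISG15 passed as higher (0.38, adjusted p = 0.0301 in limma). USP18, which removes ISG15 from proteins and shuts off signalling at IFNAR2, had 1.3, 2.03 and 1.47 CPM in FKA replicates 1 to 3, against 4.15, 4.58 and 3.84 CPM in control replicates 1 to 3. Every FKA value was below every control value (log2FC -1.39, SE 0.242, adjusted p = 0.00113 in edgeR), with within-batch differences of -1.37, -1.01 and -1.14. HERC5, the ligase that attaches ISG15, had 12.1, 13.5 and 14.4 CPM in FKA replicates 1 to 3, against 14.8, 16.2 and 17 CPM in control replicates 1 to 3. All FKA libraries were slightly below all controls, without passing (log2FC -0.26, SE 0.131, adjusted p = 0.113 in edgeR). HERC6 had 3.91, 5.19 and 4.14 CPM in FKA replicates 1 to 3, against 4.73, 4.92 and 4.46 CPM in control replicates 1 to 3 (log2FC -0.09, SE 0.189, adjusted p = 0.695 in edgeR). UBA7, the enzyme that activates ISG15, was counted among the other interferon-induced genes and rose to 58.1, 54.7 and 46.8 CPM in FKA replicates 1 to 3, against 21, 21.6 and 18.2 CPM in control replicates 1 to 3 (log2FC 1.39, SE 0.12, adjusted p = 2.77e-05 in edgeR).

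The nucleotide enzymes and the oligoadenylate synthetases, which are strongly induced by interferon in many cells, showed no common rise. RSAD2 (viperin) makes a nucleotide that ends viral RNA chains and had 9.85, 8.53 and 6.53 CPM in FKA replicates 1 to 3, against 11.9, 11.2 and 9.97 CPM in control replicates 1 to 3. The FKA values were below the controls without passing (log2FC -0.41, SE 0.181, adjusted p = 0.0775 in edgeR). CMPK2, which supplies its substrate from the neighbouring gene, had 4.97, 2.97 and 2.65 CPM in FKA replicates 1 to 3, against 6.4, 4.36 and 5.44 CPM in control replicates 1 to 3 (log2FC -0.61, SE 0.276, adjusted p = 0.0821 in edgeR). Both passed as lower when batch was blocked, with adjusted edgeR p-values of 0.0387 for RSAD2 and 0.0317 for CMPK2, and without FKA replicate 1 (-0.55 and -0.94, adjusted p = 0.043 and 0.015 in edgeR). Their gene models overlap, and whether reads of the shared stretch were told apart is not known. ISG20, an RNA exonuclease, had 30, 31 and 15 counts in FKA replicates 1 to 3, against 14, 24 and 15 counts in control replicates 1 to 3 (log2FC 0.56, SE 0.415, adjusted p = 0.269 in edgeR). OAS1, which makes the 2′-5′ oligoadenylates that activate RNase L, had 7.77, 7.66 and 5.64 CPM in FKA replicates 1 to 3, against 5.12, 4.67 and 3.9 CPM in control replicates 1 to 3. The groups did not overlap (log2FC 0.62, SE 0.2, adjusted p = 0.0237 in edgeR), but the call was lost in 4 of the 6 leave-one-library-out fits, namely without FKA replicate 1 (0.54, adjusted p = 0.0815 in edgeR) or 2 (0.56, adjusted p = 0.0737 in edgeR) and without control replicate 2 (0.63, adjusted p = 0.0562 in edgeR) or 3 (0.51, adjusted p = 0.0911 in edgeR). OAS3 had 45, 24 and 25 counts in FKA replicates 1 to 3, against 51, 57 and 50 counts in control replicates 1 to 3 (log2FC -0.72, SE 0.333, adjusted p = 0.0892 in edgeR), and passed as lower without FKA replicate 1 (-1.10, adjusted p = 0.0246 in edgeR).

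IFI6 and IFI35 are the genes of the IFI group that could be tested, and both rose. IFI6, a protein of the endoplasmic reticulum and mitochondria that protects infected cells from death, had 109, 116 and 117 counts in FKA replicates 1 to 3, against 10, 21 and 11 counts in control replicates 1 to 3. The FKA values were nearly equal to each other at 3.39, 3.63 and 3.37 CPM, and the controls stood at 0.322, 0.587 and 0.327 CPM (log2FC 3.05, SE 0.311, adjusted p = 6.47e-05 in edgeR). This is a fold of 8.27, with within-batch differences of 2.24, 1.92 and 2.22, which the added 0.5 CPM makes smaller. IFI35 had 10.6, 13.6 and 11.6 CPM in FKA replicates 1 to 3, against 9.11, 8.05 and 8.48 CPM in control replicates 1 to 3 (log2FC 0.48, SE 0.152, adjusted p = 0.0226 in edgeR). That rise was lost without FKA replicate 2 (0.37, adjusted p = 0.0873 in edgeR), without control replicate 2 (0.43, adjusted p = 0.079 in edgeR) and without control replicate 3 (0.47, adjusted p = 0.0674 in edgeR).

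Of 5 genes of nuclear body and PARP proteins 4 rose (80%, against 29.3% of all tested genes). They rose by less than the IFIT genes, with TRIM22 ahead of the rest. TRIM22, a ubiquitin ligase that represses viral transcription, had 100.4, 123 and 159.5 CPM in FKA replicates 1 to 3, against 80.2, 49.1 and 45.6 CPM in control replicates 1 to 3. FKA replicate 3 was highest and control replicate 1 was the highest control (log2FC 1.13, SE 0.232, adjusted p = 0.00275 in edgeR), so the within-batch differences of 0.32, 1.32 and 1.80 were unequal. Without FKA replicates 2 and 3 together its log2 fold change was 0.78 (adjusted p = 0.0693 in edgeR). PARP14, an ADP-ribosyl transferase, had 131, 126 and 117 CPM in FKA replicates 1 to 3, against 81.5, 97.3 and 80.2 CPM in control replicates 1 to 3 (log2FC 0.53, SE 0.0996, adjusted p = 0.00173 in edgeR), and the nuclear body protein SP100 had 55.9, 57.2 and 53.3 CPM in FKA replicates 1 to 3, against 40.3, 46.4 and 42.7 CPM in control replicates 1 to 3 (log2FC 0.36, SE 0.0923, adjusted p = 0.00813 in edgeR). Both showed groups without overlap and a rise of under 2-fold. SP110, a relative of SP100, had 22.1, 30 and 20.2 CPM in FKA replicates 1 to 3, against 16.2, 18.1 and 14.3 CPM in control replicates 1 to 3 (log2FC 0.57, SE 0.171, adjusted p = 0.0171 in edgeR), and its call was lost without FKA replicate 2 (0.39, adjusted p = 0.0624 in edgeR) or control replicate 3 (0.48, adjusted p = 0.068 in edgeR). PARP9, a partner of the ligase DTX3L in interferon signalling, had 13.5, 13.4 and 9.38 CPM in FKA replicates 1 to 3, against 7.27, 11.1 and 7.82 CPM in control replicates 1 to 3 and was not called (log2FC 0.47, SE 0.213, adjusted p = 0.0849 in edgeR). It passed when batch was blocked (adjusted p = 0.0485 in edgeR), with library totals (0.62, adjusted p = 0.0405 in edgeR), without FKA replicate 3 (0.62, adjusted p = 0.0357 in edgeR) and without control replicate 2 (0.67, adjusted p = 0.0286 in edgeR).

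The remaining effectors moved both ways. XAF1, which binds the apoptosis inhibitor XIAP and promotes cell death, had 36.7, 29.4 and 26.1 CPM in FKA replicates 1 to 3, against 88.3, 129 and 81 CPM in control replicates 1 to 3. Every FKA library was below every control (log2FC -1.69, SE 0.192, adjusted p = 0.00011 in edgeR), a fold of 3.24 lower, and the within-batch differences were -1.26, -2.11 and -1.62. SAMD9 and SAMD9L are neighbouring genes on chromosome 7 whose products restrain translation and growth, and both rose. SAMD9 had 51.4, 62.2 and 57.2 CPM in FKA replicates 1 to 3, against 31.7, 35.6 and 30.3 CPM in control replicates 1 to 3 (log2FC 0.81, SE 0.109, adjusted p = 0.000285 in edgeR), and SAMD9L had 16.8, 26.5 and 13 CPM in FKA replicates 1 to 3, against 7.34, 11.8 and 7.94 CPM in control replicates 1 to 3 (log2FC 1.05, SE 0.279, adjusted p = 0.00991 in edgeR). LGALS3BP, a secreted glycoprotein, had 54, 63 and 41 counts in FKA replicates 1 to 3, against 19, 22 and 28 counts in control replicates 1 to 3 (log2FC 1.22, SE 0.325, adjusted p = 0.0101 in edgeR).

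**Figure D4:**
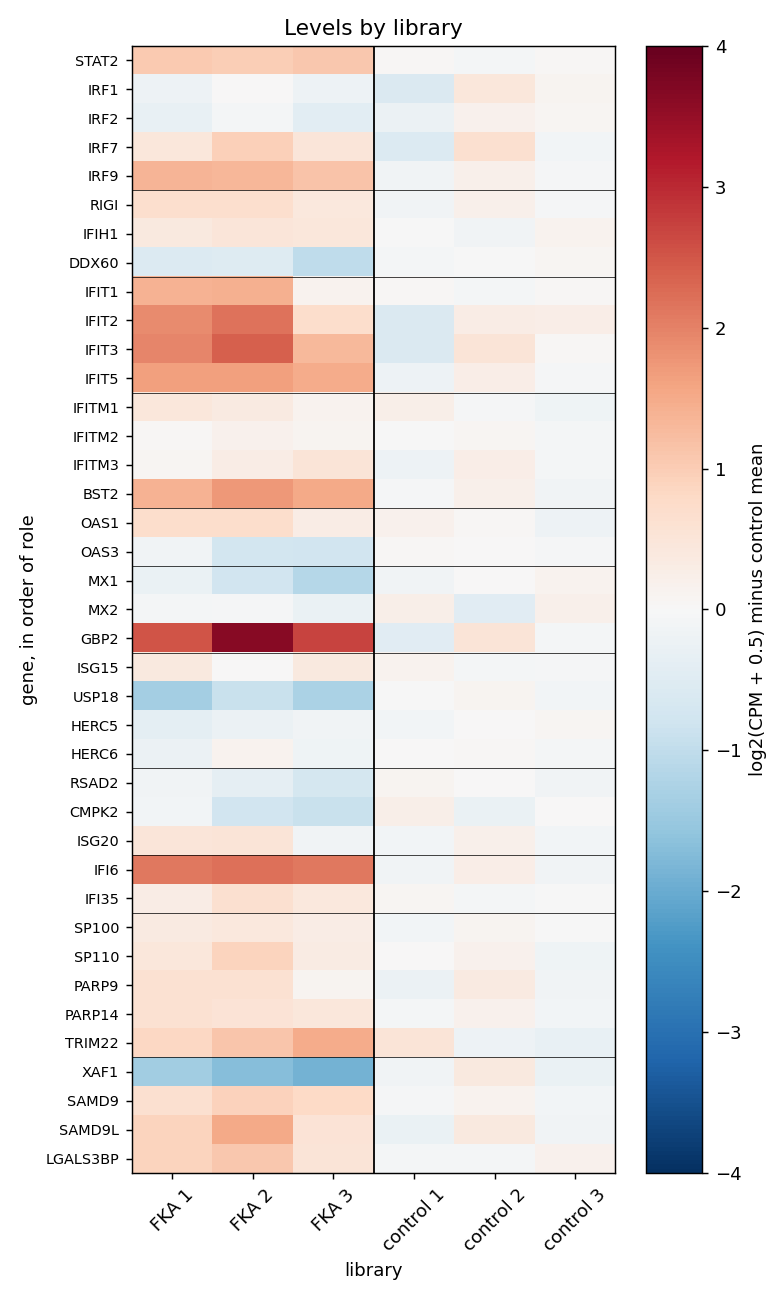
Level of the 39 tested genes (y axis, in order of role) in each library (x axis, FKA left of control), as log2(CPM + 0.5) minus the mean of the 3 controls. GBP2, IFI6, IFIT2 and IFIT3 hold the darkest red cells in the FKA columns, XAF1 and USP18 the darkest blue, and control replicate 1 is below the other controls in IRF1, IRF7, IFIT2 and IFIT3.

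Effectors and upstream genes differed little in how often they were called. Of 31 tested effectors 16 were higher (51.6%), 2 lower (6.45%) and 13 not called, with a median log2 fold change of 0.48. Of the 8 IRF, STAT and sensor genes 4 were higher (50%), 1 lower (12.5%) and 3 not called, with a median of 0.52. Over all tested genes 29.3% were higher and 30.5% lower. Called genes made up 58.1% of effectors and 62.5% of upstream genes, close to the 59.8% of all tested genes. The effectors spread more widely, from -1.69 to 3.46, against -0.71 to 1.33 for the upstream genes. 10 effectors and 2 upstream genes rose at least 2-fold, while 11.9% of all tested genes were called and at least 2-fold higher. The upstream genes were fewer, and the difference between the classes was not tested. Without control replicate 1, 3 upstream genes were lower, IRF1 and IRF2 having joined DDX60.

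6 of the 45 genes had too few counts for the test, all of them effectors. OAS2 had 7, 8 and 3 counts in FKA replicates 1 to 3, against 3, 10 and 2 counts in control replicates 1 to 3. OASL, a relative of the synthetases without their activity, had 5, 7 and 2 counts in FKA replicates 1 to 3, against 2, 0 and 10 counts in control replicates 1 to 3. These values overlap between the groups. IFI44 had 5, 7 and 4 counts in FKA replicates 1 to 3, against 3, 1 and 6 counts in control replicates 1 to 3, and its neighbour IFI44L had 1 count in FKA replicate 1 and none in the other 5 libraries. IFI27, among the most interferon-responsive genes of blood cells, had 1, 4 and 1 counts in FKA replicates 1 to 3, against 1, 1 and 1 counts in control replicates 1 to 3. EPSTI1 had 4, 1 and 0 counts in FKA replicates 1 to 3, against 0, 0 and 1 counts in control replicates 1 to 3. All of them were thus at or close to 0 in FKA and in control cells.

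Several members are genomic neighbours. In the RefSeq gene table IFIT2 and IFIT3 adjoin, IFIT1 follows after IFIT1B, and IFIT5 comes next, and these 4 rose. SAMD9 adjoins SAMD9L, and SP100 lies near SP110, with each pair called higher. IFITM1, IFITM2 and IFITM3 adjoin, as do MX1 with MX2, RSAD2 with CMPK2 and HERC5 with HERC6, and none of these 9 was called. IFITM1, IFITM2, IFITM3, MX1, RSAD2 and CMPK2 each passed in some alternative fit. Of all 13531 tested genes 29.3% were higher and 5441 genes were not called. OAS1, OAS3 and OAS2 adjoin and differed, with OAS1 higher, OAS3 not called and OAS2 too low to test. DTX3L, which lies between PARP9 and PARP14 and overlaps PARP9, had 44.2, 52 and 42.9 CPM in FKA replicates 1 to 3, against 44.4, 49.7 and 46 CPM in control replicates 1 to 3 (log2FC -0.01, SE 0.105, adjusted p = 0.941 in edgeR).

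Levels of different genes were compared in FPKM, which are divided by gene length and library total. In FKA cells BST2 ranked 1 of the 45 with 79.8 FPKM, against 24.1 FPKM in control cells, where it ranked 2. TRIM22 ranked 2 in FKA cells with 46.6 FPKM and 3 in control cells with 19 FPKM. IFITM2 ranked 3 in FKA cells with 39.4 FPKM and 1 in control cells with 32.6 FPKM. The order of these 3 genes thus differed between the groups. XAF1 ranked 16 in FKA cells with 5.42 FPKM and 4 in control cells with 15.8 FPKM. The genes with the highest fold changes were of low level, with GBP2 at 3.2 FPKM in FKA cells and 0.26 FPKM in control cells, and IFI6 at 3.81 FPKM in FKA cells and 0.41 FPKM in control cells. IFIT3 stood at 4.15 FPKM in FKA cells and 0.885 FPKM in control cells.

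The rest of the pathway was followed in 103 further genes, of which 81 had a row and 65 were tested. 30 were higher (46.2%, against 29.3% of all tested genes), 11 lower (16.9%, against 30.5%) and 24 not called, with a median log2 fold change of 0.20, against 0.01. The share called, 63.1%, was close to the 59.8% of all tested genes. Interferon genes themselves had almost no reads. 5 of 21 listed ligands had a row, and IFNB1, the interferon beta gene, had 1, 0 and 0 counts in FKA replicates 1 to 3, against 0, 1 and 0 counts in control replicates 1 to 3. IFNA5 had 4 counts in FKA replicate 3 and none in the other 5 libraries, and IFNA13, IFNL1 and IFNL3 had 1 count each over all 6 libraries. A count of 0 allows up to 3 counts, which is 0.0863 to 0.0938 CPM in FKA libraries and 0.0838 to 0.0965 CPM in control libraries, for counting error only.

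The receptor and kinase genes that were called rose by less than 2-fold. Of 5 tested receptor genes 3 were higher (60%, against 29.3% of all tested genes) and 0 lower (against 30.5%). The share called was thus close to the 59.8% of all tested genes. IFNAR1 had 103, 107 and 105 CPM in FKA replicates 1 to 3, against 85.8, 94.2 and 87.2 CPM in control replicates 1 to 3 (log2FC 0.24, SE 0.0789, adjusted p = 0.0283 in edgeR), and IFNAR2 had 79.3, 79.2 and 82.6 CPM in FKA replicates 1 to 3, against 59.8, 64.6 and 74.5 CPM in control replicates 1 to 3 (log2FC 0.28, SE 0.0987, adjusted p = 0.0357 in edgeR). Both calls were lost in 5 of the 6 leave-one-library-out fits, with the edgeR adjusted p up to 0.103 for IFNAR1, without control replicate 3, and up to 0.101 for IFNAR2, without FKA replicate 3. The log2FC in those 6 fits was 0.20 to 0.27 for IFNAR1 and 0.20 to 0.36 for IFNAR2. Both calls were also lost with all libraries and no filter on low counts (0.20, adjusted p = 0.127 for IFNAR1 and 0.24, adjusted p = 0.0865 for IFNAR2, in edgeR). IL10RB, a subunit shared by the interferon lambda receptor, rose (log2FC 0.63, SE 0.151, adjusted p = 0.00637 in edgeR). IFNGR1 was not called (log2FC 0.24, SE 0.113, adjusted p = 0.0905 in edgeR) but passed when batch was blocked (adjusted p = 0.0386 in edgeR) and with library totals (0.40, adjusted p = 0.0219 in edgeR), and IFNGR2 was not called (log2FC -0.08, SE 0.112, adjusted p = 0.545 in edgeR). The kinases JAK1 (0.88), JAK2 (0.63) and TYK2 (0.68) all rose on the log2 scale.

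STAT3, which answers mainly to interleukins, rose. It had 253, 255 and 252 CPM in FKA replicates 1 to 3, against 125, 129.7 and 132 CPM in control replicates 1 to 3 (log2FC 0.97, SE 0.0787, adjusted p = 2e-05 in edgeR). Among the other IRFs, IRF5 rose (log2 fold change 0.71), IRF3 rose slightly (0.24, adjusted p = 0.0489 in edgeR, lost in 5 of 6 fits without 1 library and with DESeq2 at an adjusted p of 0.0523), and IRF8, a factor of monocyte and dendritic cell fate, fell. IRF8 had 130.1, 132 and 179 CPM in FKA replicates 1 to 3, against 252, 203 and 244 CPM in control replicates 1 to 3 (log2FC -0.67, SE 0.144, adjusted p = 0.00356 in edgeR). IRF4 had at most 11 counts in a library and was not tested.

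Of 5 brakes of the pathway, 2 rose (40%, against 29.3% of all tested genes), 2 fell (40%, against 30.5%) and 1 was not called. SOCS3 (log2FC 0.66, adjusted p = 0.0428 in edgeR) and PIAS1 (0.26, adjusted p = 0.022 in edgeR) rose, and PTPN2 fell (-0.45, adjusted p = 0.00761 in edgeR). SOCS1, an inhibitor of JAK kinases that interferon induces, had 1.34, 1.66 and 1.84 CPM in FKA replicates 1 to 3, against 2.83, 6.71 and 5 CPM in control replicates 1 to 3. SOCS1 fell (log2FC -1.59, SE 0.328, adjusted p = 0.00281 in edgeR), as did USP18. Of 14 tested sensing genes 4 rose (28.6%, against 29.3% of all tested genes), 2 fell (14.3%, against 30.5%) and 8 were not called. SAMHD1, which depletes the DNA building blocks of retroviruses, had 107, 128 and 177 CPM in FKA replicates 1 to 3, against 61.8, 58.8 and 72.1 CPM in control replicates 1 to 3 (log2FC 1.10, SE 0.174, adjusted p = 0.000656 in edgeR), and without FKA replicates 2 and 3 together its log2 fold change was 0.73. TLR9, the receptor for bacterial DNA, had 0.901, 2.09 and 2.45 CPM in FKA replicates 1 to 3, against 3.19, 6.15 and 5.21 CPM in control replicates 1 to 3 (log2FC -1.42, SE 0.381, adjusted p = 0.0107 in edgeR), and -2.44 without FKA replicates 2 and 3 together.

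Other interferon-induced genes also went both ways. Of 33 tested, 15 were higher (45.5%, against 29.3% of all tested genes), 6 lower (18.2%, against 30.5%) and 12 not called. The share called, 63.6%, was close to the 59.8% of all tested genes. The chemokine CXCL11, which draws T cells, had 2, 1 and 0 counts in FKA replicates 1 to 3, against 22, 97 and 87 counts in control replicates 1 to 3. Over the groups this is 3 counts with FKA and 206 in control cells, a ratio of 67.6-fold lower with an exact 95% counting interval of 22.8 to 331. That interval covers counting error only and leaves out the spread between libraries. The fit gave a log2FC of -5.88 with a 95% interval of -7.73 to -4.03 (SE 0.819, adjusted p = 0.00033 in edgeR). CXCL11 stood at -6.75 without FKA replicate 1, and at -4.94 without FKA replicates 2 and 3 together. CXCL10, a related chemokine, had 1, 6 and 5 counts in FKA replicates 1 to 3, against 11, 20 and 12 counts in control replicates 1 to 3 (log2FC -1.78, SE 0.573, adjusted p = 0.024 in edgeR). The filter on low counts kept CXCL10 and CXCL11 through their control libraries alone. The call of CXCL10 was lost without FKA replicate 1 (-1.35, adjusted p = 0.0703 in edgeR), FKA replicate 3 (-1.92, adjusted p = 0.0542 in edgeR) or control replicate 2 (-1.53, adjusted p = 0.0921 in edgeR) and with DESeq2 (adjusted p = 0.0572), and its value was -3.63 without FKA replicates 2 and 3 together. WARS1, a tryptophanyl-tRNA synthetase induced by interferon gamma and also by amino acid stress, had 215, 94.6 and 96.8 CPM in FKA replicates 1 to 3, against 415, 529 and 483 CPM in control replicates 1 to 3. FKA replicate 1 held more than double the WARS1 level of the other FKA libraries (log2FC -1.81, SE 0.296, adjusted p = 0.000777 in edgeR), and the value was -1.16 without FKA replicates 2 and 3 together. The death ligand TNFSF10 (TRAIL) rose to 6.55, 9.06 and 7.88 CPM in FKA replicates 1 to 3, against 1.06, 2.01 and 2.59 CPM in control replicates 1 to 3 (log2FC 2.05, SE 0.305, adjusted p = 0.000482 in edgeR). SLFN5, a repressor of transcription, rose as well (log2FC 1.43, SE 0.186, adjusted p = 0.000223 in edgeR).

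Markers of other cells give the following values. Of 15 fibroblast markers 8 were tested, with a median log2FC of 2.13. COL6A3 fell, and the other 7 had positive log2FC of 0.93 to 2.83 without passing, such as COL1A2 (log2FC 2.83, SE 1.22, adjusted p = 0.0716 in edgeR). The 14 markers other than COL6A3 summed to 1.86, 59.2 and 56 CPM in FKA replicates 1 to 3, against 12.9, 10.7 and 1.7 CPM in control replicates 1 to 3. With COL6A3 the sums were 10.9, 70.0 and 71.1 CPM in FKA replicates 1 to 3, against 55.2, 35.8 and 20.2 CPM in control replicates 1 to 3. The 5 plasmacytoid dendritic cell markers, from a cell known for making interferon, summed to 1.62 to 2.19 CPM in FKA libraries and 3.96 to 6.84 CPM in control libraries, with CLEC4C and LILRA4 at or near 0 throughout. T and NK markers summed to 9.5 to 9.95 CPM in FKA libraries and 21.5 to 24.3 CPM in control libraries, nearly all of it NKG7. B cell markers summed to 7.3 to 9.67 CPM with FKA and 20.7 to 27.4 CPM without, mostly PAX5. Epithelial markers summed to 13.1 to 19.0 CPM in FKA libraries and 19.2 to 22.0 CPM in control libraries, and endothelial markers, mostly EGFL7, to 6.99 to 8.63 CPM in FKA libraries and 2.9 to 3.21 CPM in control libraries. No erythroid marker listed here was analysed. The 2 plasmacytoid markers tested, IL3RA and TCF4, fell, as did NKG7, PAX5 and KRT18, while EGFL7 rose. IL3RA had 16, 17 and 16 counts in FKA replicates 1 to 3, against 41, 21 and 120 counts in control replicates 1 to 3 (log2FC -1.87, SE 0.607, adjusted p = 0.0247 in edgeR). Control replicate 3 was thus far above the other controls, and the within-batch differences of IL3RA were -0.87, -0.08 and -2.08. The part of other cells in the results was not tested.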

How the data were processed

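What aligned and counted the reads, with which annotation, library kit and strand setting, is not given in the sources used here. GRCm38 and mm10, both mouse builds, stand in the submitters' processing notes, while the symbols are human (20645 of 21857 in the human RefSeq gene table). The authors deposited whole-number counts per gene and FPKM values for 6 libraries. Each deposited FPKM equalled the count divided by column total and 1 length per gene, within a relative deviation of 8.45e-07. Without a stated strand setting, it is not known whether reads of overlapping genes were separated (8 of the 46 genes overlap another coding gene).

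Counts were tested in R 4.3.3 with edgeR 4.0.16. filterByExpr kept 13531 genes, with TMM scaling and the quasi-likelihood F test (FKA over control). Benjamini-Hochberg adjustment ran over all kept genes with a threshold of 0.05. The SE is the absolute log2 fold change over the root of F. Within-batch differences are of log2(CPM + 0.5). The fit was tested on simulated data. DESeq2 1.42.0 and limma 3.58.1 on log2 FPKM served as alternatives, with others of scaling, filter, batch and left-out libraries. The genes and lists were chosen with earlier results of these data known.

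The labels give each replicate number a batch of its own, shared by 1 FKA and 1 control library. Deviations from group means correlated at 0.11, 0.43 and -0.08 within batches 1, 2 and 3. All pairs of replicates differed by more than sampling noise, at 21.7 to 66.3 chi-square per degree of freedom. All listed genes may be named. Of the further pathway genes, all ligands, receptors, kinases, STATs and IRFs with at least 10 counts in a library are named (1 is not reported here), and up to 6 called and at least 2-fold changed genes of each other list, plus the ligands below that level. COL1A1, FN1, the brakes SOCS3, PIAS1 and PTPN2 and overlapping neighbours were added.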

Additional observations from a re-analysis of the deposited data

How the results depend on the processing

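Of the 39 tested interferon-stimulated genes, 15 kept their direction and side of the threshold in every alternative run, and 13 of the 23 called ones did. The count of higher genes, 20, was 17 to 21 in the fits without 1 library and 19 to 24 under the other settings with all libraries. Calls over all tested genes moved as well. Their higher count, 3959, was 3365 to 3981 without 1 library. It was 3767 to 5013 under the other settings, in which 10601 to 21857 genes were tested. The count of lower interferon-stimulated genes, 3, was 3 to 7 without 1 library, with 7 without FKA replicate 1 and 5 without control replicate 1. It was 5 with the batch as a replicate block. Over all tested genes the lower count, 4131, was 3711 to 4212 without 1 library and 4223 with the block. For effectors, the 16 higher were 13 to 17 without 1 library, and the 2 lower were 2 to 6 without 1 library and 4 with the replicate block. For IRF, STAT and sensor genes, the 1 lower was 1 to 3 without 1 library, and 0 with limma on unfiltered log2(FPKM + 1). For the further pathway genes, 30 higher were 21 to 26 without 1 library. Leaving out libraries leaves fewer samples for the test by construction, and the cause of the other shifts was not tested. Among the named genes, the block changed the calls of IRF7, PARP9, RSAD2, CMPK2 and IFNGR1, and of the marker HOXA9, lower at an edgeR adjusted p of 0.0437 and at 0.0645 with the block. 4 genes, none of them called, changed sign. IRF1 was 0.0165 with limma on log2(FPKM + 1) with and without filters and 0.0255 with log2(FPKM + 0.1), and its range without 1 library was -0.447 to 0.0532 (the highest without control replicate 2). MX2 was 0.00757 with log2(FPKM + 0.1). HERC6 was 0.067 with library totals, 0.0326 on log2(FPKM + 1) under 3 filters and 0.0539 on log2(FPKM + 0.1). IFNGR2 was 0.0724 with library totals, 0.0794 on log2(FPKM + 1) and 0.0833 on log2(FPKM + 0.1). Limma on unfiltered log2(FPKM + 1) values, which shrink low genes, lost the calls of IFIT1 (0.24), SAMD9L (0.76), DDX60 (-0.32) and TLR9 (-0.59). Limma on log2(FPKM + 1) called ISG15 (0.38), IFITM1 (0.46) and IFITM2 (0.27) higher, where FPKM carry no TMM scaling. At the depth of these libraries 1 count is 0.0279 to 0.0322 CPM, so genes with under about 10 counts, such as IFI44L, IFI27 and EPSTI1, allow no statement on a change.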
